A study of Mus musculus with 19 samples.

Results

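The circadian clock genes were followed in liver and duodenum on all 19 arrays of the study. The 10 members were fixed by name, with earlier results of these data known: Arntl (now named Bmal1), Npas2, Clock, Per1, Per2, Per3, Nr1d1, Nr1d2, Dbp and Tef. They are 10 of the 17711 genes named on the array, and 22 of its 46632 probes read them. Each array held RNA of 1 male C57BL/6 mouse, and the arrays fall into 8 groups. The liver groups were 3 mice homozygous for a disruption of Hfe (Hfe-/-) against 2 wild-type mice, and 3 mice given a diet supplemented with carbonyl iron (iron diet) against 2 mice given a standard diet (control diet). The duodenum groups were 2 Hfe-/- against 2 wild-type mice, and 3 iron diet against 2 control diet mice. The study left out 1 further Hfe-/- duodenum, whose data its quality control found to diverge from the other 2. The disruption is carried in every tissue, and Hfe-/- and wild-type mice were given a standard diet. By the study's methods, the standard diets of both experiments did not hold the same amount of iron. The labels give an age of 10 to 12 weeks for Hfe-/- livers and 13 to 14 weeks for wild-type livers. They give 10 to 11 and 12 to 13 weeks for the Hfe-/- and wild-type duodena, and 16 to 18 weeks for the iron diet and control diet groups. The study's methods instead put both Hfe-/- and wild-type mice at about 10 weeks, so the sources conflict. By the labels, age cannot be told apart from genotype or from experiment. The hour of tissue collection, the lighting and the access to food before collection are not given in the sources used here. Which liver and which duodenum array came from 1 mouse is not in the labels either.

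The circadian clock is a feedback loop of transcription factors that runs in nearly every cell. CLOCK or NPAS2 pairs with ARNTL, binds E-box sequences and switches on the Per and Cry genes, whose proteins return to the nucleus and repress that pair. The same pair also drives Nr1d1 and Nr1d2, which encode the nuclear receptors REV-ERB alpha and beta that repress Arntl, and Dbp and Tef, which encode PAR bZIP factors that act on D-box sequences in output genes. In mouse liver, transcripts of Arntl, Npas2 and Clock peak from late night to early day, whereas those of Dbp, Tef, the Per genes and the Nr1d genes peak between day and early night, and the time of feeding can reset the phase in liver and gut.

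The windows around the start sites of 9 of the 10 members were taken from RefSeq (GRCm38.p6), each from 250 bases before to 50 after a start, to show the sites through which the members are known to act on each other. Both strands of the 14 windows were searched for the E-box CACGTG, for the D-box as TTATGTAA or TTACGTAA, and for the RORE, the element bound by the REV-ERB receptors and their activating relatives. None of these motifs overlapped another in the windows shown. Of all 32851 RefSeq windows of this length, 7.15% hold the E-box, 1.06% the D-box and 0.384% the RORE. Among the members, the E-box was found in 3 windows of 2 genes (Per1 and Tef), the D-box in 1 window (Per3, 2 copies) and the RORE in 1 window (Arntl). No window is given for Per2. To show each of the 3 motifs, in capitals, 1 window is printed for each, from a member of a different role, and the windows of Per1 and the second one of Tef, which hold the E-box too, are left out. A match is a description of these letters and not a site shown to be bound.
Arntl, chr7:113207261-113207560, plus strand, RORE in capitals: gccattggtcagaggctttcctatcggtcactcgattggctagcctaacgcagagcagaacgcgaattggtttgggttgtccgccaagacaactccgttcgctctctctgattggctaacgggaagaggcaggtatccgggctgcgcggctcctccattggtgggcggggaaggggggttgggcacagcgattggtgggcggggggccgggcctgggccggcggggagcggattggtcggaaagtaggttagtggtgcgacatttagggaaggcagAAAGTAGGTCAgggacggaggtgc
Per3, chr4:151044616-151044915, minus strand, D-boxes in capitals: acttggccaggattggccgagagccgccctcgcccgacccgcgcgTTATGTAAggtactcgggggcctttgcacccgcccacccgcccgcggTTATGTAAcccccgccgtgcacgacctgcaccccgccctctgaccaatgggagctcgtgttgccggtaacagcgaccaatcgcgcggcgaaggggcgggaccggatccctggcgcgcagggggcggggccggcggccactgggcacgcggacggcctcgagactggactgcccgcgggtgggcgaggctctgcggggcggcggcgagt
Tef, chr15:81802423-81802722, plus strand, E-box in capitals: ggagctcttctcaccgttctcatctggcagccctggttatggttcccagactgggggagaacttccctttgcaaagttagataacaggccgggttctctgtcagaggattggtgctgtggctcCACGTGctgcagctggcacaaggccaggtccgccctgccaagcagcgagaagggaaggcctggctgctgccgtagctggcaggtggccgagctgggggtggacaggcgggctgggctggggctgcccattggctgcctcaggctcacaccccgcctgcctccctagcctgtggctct

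Levels are given as log2 signal, the log2 of the mean bead intensity after quantile normalization over the arrays of 1 tissue, and 1 unit is a change of 2-fold in measured brightness. A probe counted as detected on an array at a detection p under 0.05 against the negative control beads. A liver array had 12846 to 14369 detected probes (median 13550) and a duodenum array 13936 to 16965 (median 15566). Over all probes, replicate arrays had an r of 0.9872 to 0.9911 in liver, against 0.9709 to 0.9916 in duodenum. Of 5 hepatocyte markers, 4 were detected on every Hfe-/- liver and 5 on every other liver, and Vil1 and Alpi, markers of enterocytes, in all duodenum groups, while Fabp2 was detected on no duodenum array. Wild-type duodenum replicate 2 stood apart, with a summed signal of 5 pancreatic acinar markers of 748 against 58620 to 103800 on the other 8 duodenum arrays. Iron diet liver replicate 1 had a summed smooth muscle marker signal of 1454, against 439.6 to 652.4 on the other livers. In tissue RNA, fewer cells of a type and less RNA per cell cannot be told apart. Of the 22 member probes, 18 were detected on at least 1 array. Where several probes read a gene, its brightest in that tissue is described, and the others only where they went another way. In the RefSeq gene table Dbp, Nr1d1 and Per3 overlap Sphk2, Thra and Uts2, in this order.

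The Hfe-/- livers and duodena did not differ detectably from wild type in any clock gene tested. In liver, 0 of the 8 members tested passed an adjusted p of 0.05 in limma, where 0.0282% of all 14160 probes passed. An unadjusted p under 0.05 was found for 0 members and for 8.94% of all probes. In duodenum 0 of 8 passed, where 0.00602% of 16599 probes passed, and 0 had an unadjusted p under 0.05, against 6.87% of all probes. Dbp, the most variable of the output genes, had a log2 signal of 11.99, 11.19 and 11.54 in Hfe-/- livers, against 11.96 and 11.77 in wild-type livers. The groups overlapped, the log2 fold change was -0.29 ± 0.20 (SE, adjusted p = 0.749), and its 95% confidence interval ran from -0.76 to 0.18. In duodenum Dbp reached 10.96 and 11.57 in Hfe-/- mice, against 11.28 and 11.13 in wild-type mice, with a difference of 0.06 ± 0.22 (adjusted p = 0.999; interval -0.48 to 0.60). The log2 fold changes of the tested members ran from -0.29 to 0.13 in liver, and in duodenum from -0.17 to 0.12. Clock did not overlap in liver (7.24 to 7.37 in Hfe-/- mice, against 7.38 to 7.50), with a difference of -0.15 ± 0.09 (adjusted p = 0.676). Nr1d2 did not overlap in duodenum (6.55 to 6.81, against 6.83 to 6.87), with -0.17 ± 0.13 (adjusted p = 0.897). With so few arrays a group, ranges can separate by chance. Per2, a repressor of the loop, had the widest interval in duodenum, from -0.56 to 0.80, and a smaller change in it was not detectable with these mice. Arntl and Npas2 were not detected on any of the 9 arrays of this experiment, liver or duodenum, and were not tested. Some marker sums separated these groups too. In liver the Kupffer cell sum was 1414 to 1543 in Hfe-/- mice, against 1304 to 1333 in wild type. The T cell and enteroendocrine sums, mostly background there, also separated. The hepatocyte list was lower in Hfe-/- duodena (10450 to 13860, against 14670 to 15060). Goblet and Brunner gland markers (10590 to 10810, against 15130 to 15330) and enteroendocrine markers (606.1 to 624, against 840.2 to 971.2) were lower too. Their part was not tested.

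The livers of the wild-type and of the control diet mice, neither of which carried the Hfe disruption or was given the iron-supplemented diet, differed in 5 of the 9 members tested, where 3.38% of all 14266 probes passed. Of these, Arntl was detected in control diet livers only. Among probes detected on at least 1 array of both groups, 4 of 8 members passed, where 3.42% of 13431 probes passed. Wild-type mice were higher in Dbp, Tef, Per2 and Per3 and lower in Arntl. Dbp had a log2 signal of 11.96 and 11.77 in wild-type livers, against 6.71 and 7.53 in control diet livers, a rise of 4.75 ± 0.25 (26.8-fold, adjusted p = 0.00731). No control diet liver came within 4 units of a wild-type liver. Tef, which encodes the PAR bZIP factor closest in function to DBP, reached 11.26 and 11.48 in wild-type livers, against 9.03 and 9.70 in control diet livers (2.01 ± 0.22, 4.04-fold, adjusted p = 0.0187). Its second detected probe did not move in the same way, with a difference of -0.09 ± 0.08 (adjusted p = 0.624), at a signal of 6.51 and 6.57 in wild-type livers and 6.57 and 6.67 in control diet livers, and it was not detected in wild-type replicate 1.

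Among the Per genes, Per2 and Per3 passed and Per1 did not. Per2 stood at 9.16 and 8.94 in wild-type livers, against 7.05 and 7.29 in control diet livers (1.88 ± 0.12, 3.69-fold, adjusted p = 0.00881). Per3 stood at 8.10 and 8.05, against 6.63 and 6.61 (1.46 ± 0.08, 2.75-fold, adjusted p = 0.00731). The Per1 probe was dim, with 6.83 and 6.97 in wild-type livers and 6.81 and 6.73 in control diet livers, and the difference was 0.13 ± 0.09 (adjusted p = 0.486), although these groups did not overlap.

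The positive arm ran the other way. Arntl was not detected in either wild-type liver (6.29 and 6.31) and was detected in both control diet livers (7.47 and 6.98), so it was at least 1.58-fold lower in wild type (measured difference -0.92 ± 0.16, adjusted p = 0.0434). It entered the test only through the control diet arrays, on which it was detected, and so had to differ. Clock stood at 7.50 and 7.38 in wild-type livers, against 8.31 and 7.95 in control diet livers, without overlap (-0.69 ± 0.13, adjusted p = 0.0522). A second Clock probe was detected in control diet livers only (at least 1.30-fold lower in wild type, adjusted p = 0.0348), so it too had to differ and adds nothing to the first. Npas2, the partner that can stand in for Clock, was not detected on any liver array. The REV-ERB genes did not pass: Nr1d1 differed by 0.13 ± 0.22 (adjusted p = 0.799) and Nr1d2 by -0.44 ± 0.12 (adjusted p = 0.109). Without either wild-type liver the count was 3, which were Dbp, Per2 and Per3. Of the 9 marker lists, 2 also separated these livers: the summed hepatocyte signal was 62160 to 69970 in wild type, against 60120 to 60180 on the control diet (5 of 5 markers detected), and the Kupffer cell sum was 1304 to 1333, against 1168 to 1280 (3 of 4 detected). Their part in the result was not tested.

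**Figure D1:**
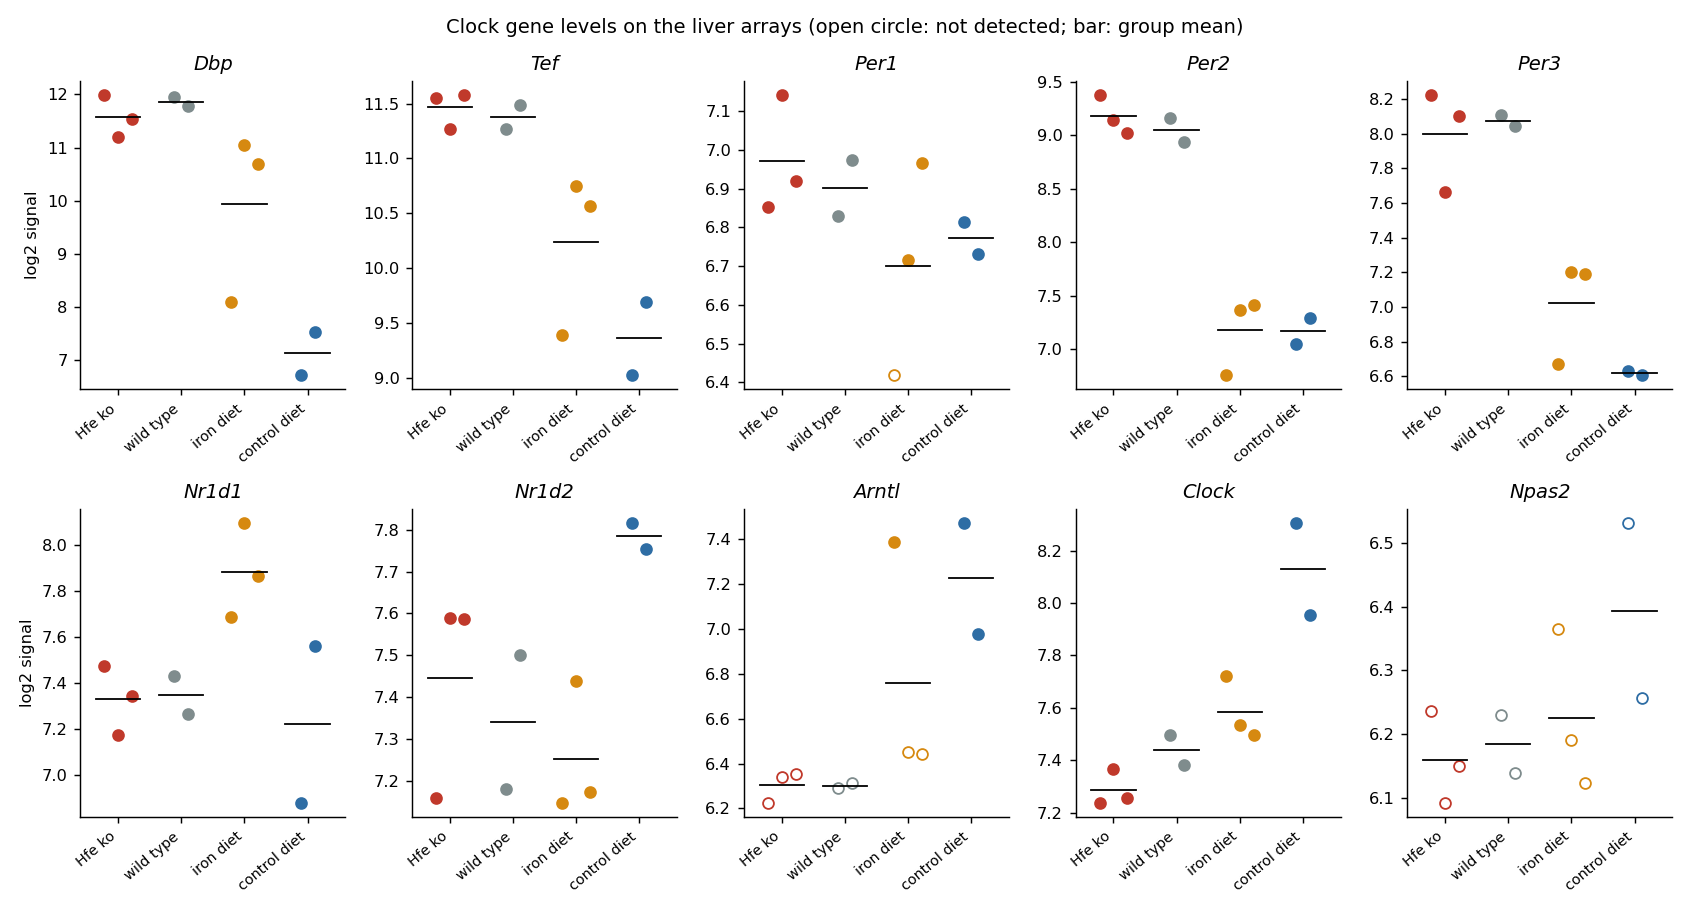
Log2 signal of each clock gene on the 10 liver arrays (y axis, a separate scale in each panel), by group (Hfe ko is Hfe-/-); each point is 1 mouse, the bar is the group mean and an open circle is a value that was not detected. Dbp, Tef, Per2 and Per3 were high and Arntl was undetected in all 5 livers of the Hfe experiment, and iron diet replicate 1, the first point of its group, had a Dbp signal of 8.09 where the other iron diet livers had 11.05 and 10.68.

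In duodenum the same comparison gave 4 of 10 members past the threshold, where 5.01% of 16123 probes passed. Arntl was again detected on the control diet only. Among probes detected on at least 1 array of both groups, 3 of 8 members passed, where 4.91% of 15161 probes passed. Dbp, Tef and Per3 were higher and Arntl was lower in wild-type duodena. Dbp had a log2 signal of 11.28 and 11.13 in wild-type mice, against 8.30 and 6.90 in control diet mice (3.61 ± 0.44, 12.2-fold, adjusted p = 0.0268). Tef stood at 10.98 and 10.64, against 9.11 and 8.24 (2.13 ± 0.30, adjusted p = 0.0307), and its second probe, undetected in both wild-type duodena, differed by -0.12 ± 0.10 (adjusted p = 0.58). The groups did not overlap in either gene. Per3 stood at 8.08 and 7.94, against 6.87 and 6.91 (1.12 ± 0.11, 2.18-fold, adjusted p = 0.0166). Its dimmer second probe was detected in wild type only and entered the test through those arrays. It was at least 1.05-fold higher in wild type (measured difference 0.35 ± 0.10, adjusted p = 0.127). Arntl was undetected in both wild-type duodena (6.41 and 6.57) and reached 7.43 and 7.69 in control diet duodena, at least 1.82-fold lower in wild type (measured difference -1.07 ± 0.13, adjusted p = 0.0273). Npas2 had a like distribution, undetected at 6.40 and 6.39 in wild type and detected at 7.13 and 6.77 in control diet duodena, but did not pass (-0.55 ± 0.15, adjusted p = 0.101), and both genes entered the test only through the control diet arrays.

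Of the 9 marker lists, 6 also separated wild-type from control diet duodena, and their part in the result was not tested. With 2 arrays a group, here as in liver, ranges can separate by chance. Lower in wild type were the sums of T cell markers (333.1 to 390, against 788.4 to 831.5), B cell markers (300.8 to 336.1, against 399.6 to 614.4) and enterocyte markers (3776 to 4085, against 4836 to 6099). The sum of the hepatocyte list, whose Alb and Serpina1a were undetected on every duodenum array, was 14670 to 15060 in wild type, against 19410 to 20970. Higher in wild type were the sums of smooth muscle markers (7026 to 10010, against 4949 to 6728) and of goblet cell and Brunner gland markers (15130 to 15330, against 12960 to 14600).

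The other 5 members did not pass in duodenum. Per2 stood at 9.30 and 9.16 in wild-type mice, against 8.70 and 8.24 in control diet mice (0.75 ± 0.18, adjusted p = 0.0778). Clock differed by -0.40 ± 0.12 (adjusted p = 0.13), Nr1d1 by 0.41 ± 0.20 (adjusted p = 0.326), Nr1d2 by -0.27 ± 0.15 (adjusted p = 0.381) and Per1 by -0.05 ± 0.11 (adjusted p = 0.877). Without wild-type replicate 2, the array with few acinar transcripts, only Per3 stayed past the threshold (1.19, adjusted p = 0.0333), while Dbp kept a difference of 3.68 (adjusted p = 0.0605). Without control diet replicate 1 the count was 2, and without control diet replicate 2 it was 1. With median scaling in place of quantile normalization it was 0. The arrays of both untreated groups come from separate experiments with mice of different age by the labels, so experiment, age and hour of collection cannot be told apart.

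**Figure D2:**
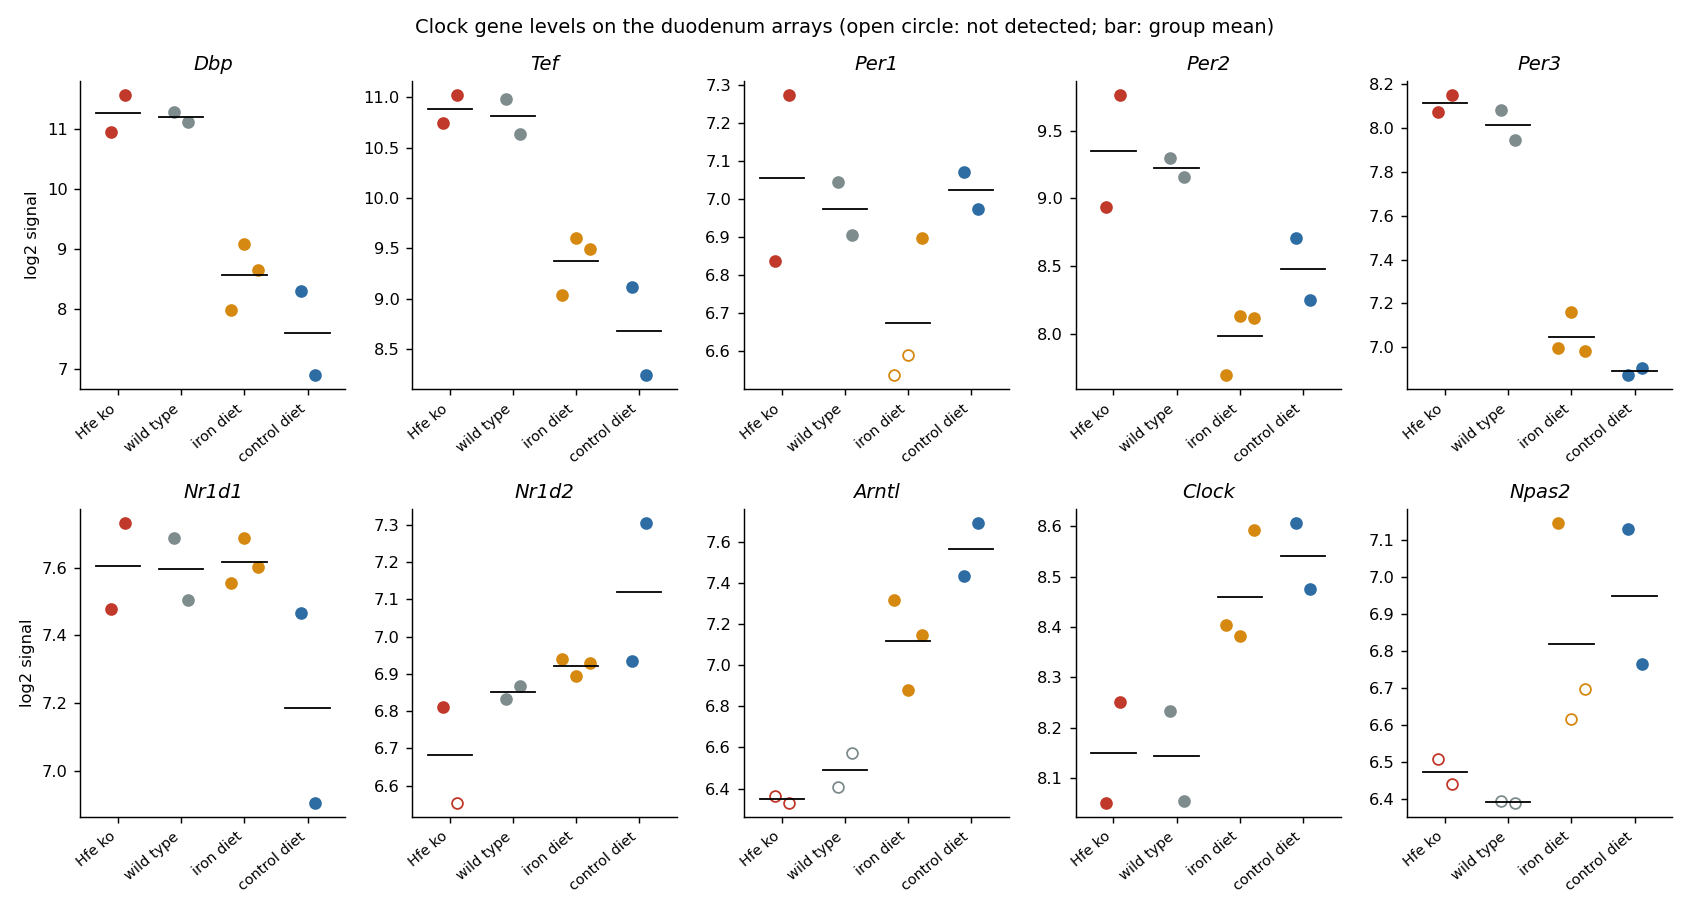
Log2 signal of each clock gene on the 9 duodenum arrays (y axis, a separate scale in each panel), by group (Hfe ko is Hfe-/-); each point is 1 mouse, the bar is the group mean and an open circle is a value that was not detected. The 4 duodena of the Hfe experiment lay above all 5 of the diet experiment in Dbp, Tef, Per2 and Per3 and below them in Arntl.

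Within the diet experiment, 1 of 9 members tested in liver passed, where 2.17% of all 14919 probes passed. An unadjusted p under 0.05 was found for 5 members and for 16.1% of all probes. The member that passed was Nr1d2, which was lower on the iron diet. Nr1d2 stood at 7.15, 7.44 and 7.17, against 7.82 and 7.75 in control diet livers (-0.53 ± 0.10, 1.45-fold lower, adjusted p = 0.0486). The groups did not overlap, and without any 1 of the 5 mice the adjusted p lay above the threshold, between 0.0583 and 0.282. Dbp had the highest fold change of the members without passing. It stood at 8.09, 11.05 and 10.68 in iron diet livers, against 6.71 and 7.53 in control diet livers (2.82 ± 0.79, 7.06-fold, adjusted p = 0.131). All 3 iron diet livers lay above both controls, but replicate 1 was nearer to the controls than to the other iron diet livers.

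The same mouse stood apart in the other clock genes that separated the experiments. Tef reached 9.39, 10.75 and 10.56 on the iron diet, against 9.03 and 9.70 on the control diet (0.88 ± 0.39, adjusted p = 0.326), with replicate 1 between the control values. Arntl was detected in iron diet replicate 1 (7.39) and not in replicates 2 and 3 (6.45 and 6.44), against 7.47 and 6.98 on the control diet (-0.47 ± 0.29, adjusted p = 0.496). Per3 stood at 6.67, 7.20 and 7.19 on the iron diet, against 6.63 and 6.61 (0.40 ± 0.16, adjusted p = 0.265). In each of these genes replicate 1 of the iron diet lay nearer to the control mean than to its group mates. This mouse was singled out by these same genes, so leaving it out had to widen their differences. The values without it are a description and not a test. Without it 5 of 9 members passed, where 3.14% of 14283 probes passed. They were Dbp (3.74, adjusted p = 0.000895), Per3 (0.58, adjusted p = 0.013), Tef (1.30, adjusted p = 0.0218), Clock (-0.62, adjusted p = 0.0476) and Arntl, and Nr1d2 did not pass (-0.48, adjusted p = 0.0659). Arntl (at least 1.59-fold lower, adjusted p = 0.0475) was then detected on the control diet only and had to differ. Among probes detected on at least 1 array of both groups, 4 of 8 members passed, where 3.06% of 13676 probes passed. This is the liver with the high smooth muscle marker signal, whose part in the result was not tested. Over all 3 iron diet livers, 3 marker sums separated the groups: hepatocyte (56110 to 59300, against 60120 to 60180 on the control diet), B cell (266.7 to 276.6, against 246.7 to 254.8) and goblet cell and Brunner gland (238.2 to 271.3, against 310.3 to 366.1), and their part was not tested either. Cd79a of the B cell list and Muc2 and Muc6 of the goblet cell and Brunner gland list were undetected in both groups. These 2 sums thus rest largely on background signal.

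Clock and Nr1d1 had non-overlapping groups in liver without passing. Clock stood at 7.72, 7.53 and 7.50 on the iron diet, against 8.31 and 7.95 on the control diet (-0.55 ± 0.12, adjusted p = 0.0697). Nr1d1 stood at 7.69, 8.10 and 7.87, against 6.88 and 7.56 (0.66 ± 0.20, adjusted p = 0.156). The Per genes that were high in wild-type livers were low in both diet groups: Per2 stood at 6.76, 7.36 and 7.41 on the iron diet, against 7.05 and 7.29 on the control diet, a difference of 0.01 ± 0.19 (adjusted p = 0.985; interval -0.44 to 0.46). Per1 differed by -0.07 ± 0.15 (adjusted p = 0.87).

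In duodenum 0 of 10 members passed for the iron diet where 0.44% of all 16373 probes passed. An unadjusted p under 0.05 was found for 5 members and for 9.88% of all probes. Dbp stood at 7.98, 9.08 and 8.66 on the iron diet, against 8.30 and 6.90 on the control diet (0.98 ± 0.44, adjusted p = 0.544), and the groups overlapped. Tef stood at 9.03, 9.61 and 9.50, against 9.11 and 8.24 (0.70 ± 0.27, adjusted p = 0.454), also with overlap. Arntl, detected on all 5 arrays, stood at 7.32, 6.88 and 7.15, against 7.43 and 7.69 (-0.45 ± 0.15, adjusted p = 0.376), and these groups did not overlap. As in liver, replicate 1 of the iron diet had the lowest Dbp and the highest Arntl of its group, although the labels do not say whether both arrays carry that number for 1 mouse. Per2 differed by -0.50 ± 0.18 (adjusted p = 0.436), Nr1d1 by 0.43 ± 0.16 (adjusted p = 0.436) and Per1 by -0.35 ± 0.12 (adjusted p = 0.421). The marker sums that separated these groups were all lower on the iron diet: T cell (512.6 to 577.2, against 788.4 to 831.5 on the control diet), B cell (354.7 to 377, against 399.6 to 614.4), goblet cell and Brunner gland (9819 to 12850, against 12960 to 14600) and enteroendocrine (731.6 to 753.8, against 765.7 to 867.6). Their part was not tested.

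**Figure D3:**
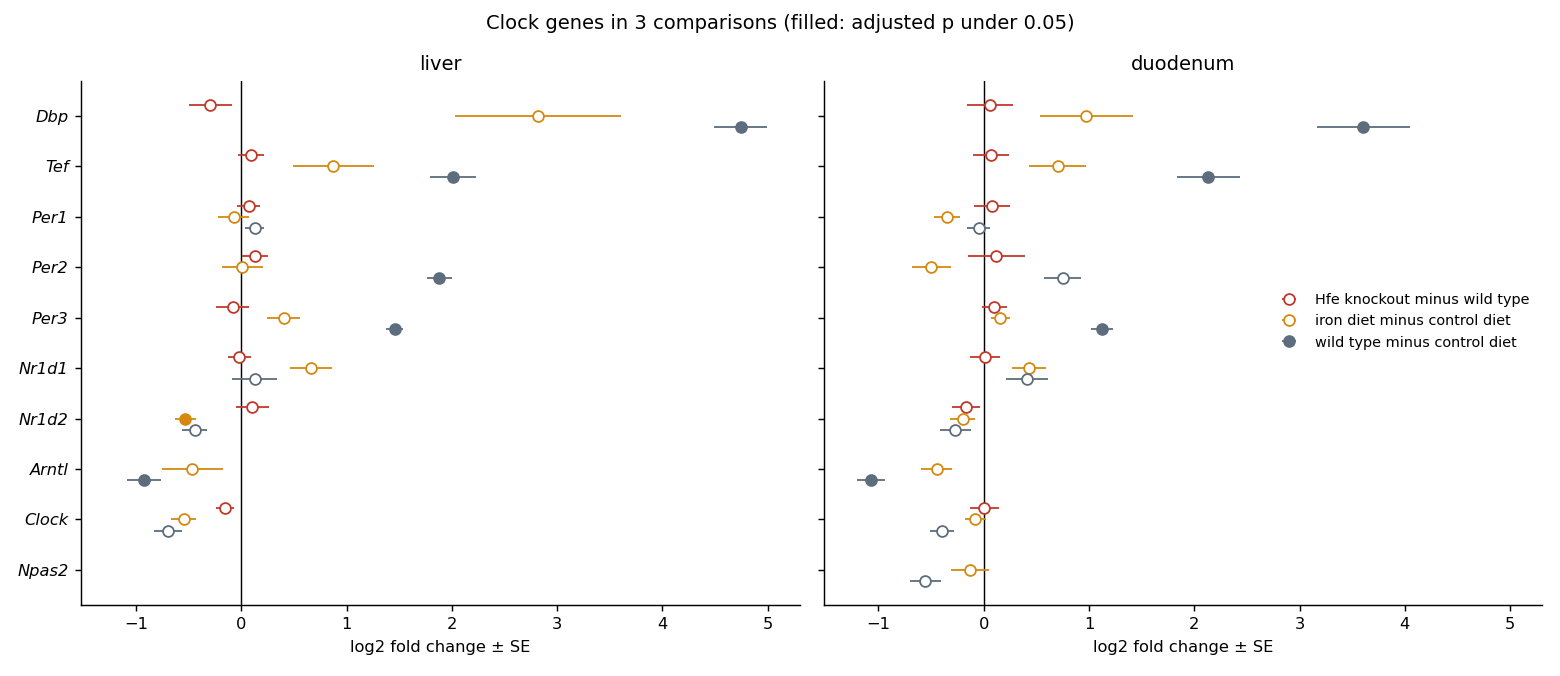
Log2 fold change (x axis) with its standard error for each clock gene (rows) in liver and duodenum; red is Hfe-/- minus wild type, orange iron diet minus control diet and grey wild type minus control diet, filled where the adjusted p was under 0.05, and a gene not tested has no point. The grey points reached 4.75 for Dbp in liver and 3.61 in duodenum, while the red points stayed between -0.29 and 0.13.

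The iron diet effect was not shown to differ from the Hfe effect, or between the tissues, in any member. For the diet effect minus the Hfe effect, 0 of 8 members passed in liver (1.02% of probes did) and 0 of 8 in duodenum (0% of probes did). An unadjusted p under 0.05 was found for 4 members and 13.4% of probes in liver, and for 0 members and 9.6% of probes in duodenum. The Dbp difference was 3.11 ± 0.96 in liver (adjusted p = 0.178) and 0.91 ± 0.63 in duodenum (adjusted p = 0.707). For the diet effect in liver minus that in duodenum, 0 of 9 passed (0.848% of probes did), and Clock was the 1 member with an unadjusted p under 0.05, against 10.8% of probes, with 1.85 ± 0.90 for Dbp (adjusted p = 0.484) and -0.47 ± 0.16 for Clock (adjusted p = 0.248). For the Hfe effect in liver minus that in duodenum, 0 of 8 passed (0.0159% of probes did), with -0.35 ± 0.94 for Dbp (adjusted p = 0.935). There 0 members and 11.6% of probes had an unadjusted p under 0.05.

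Ordered by group mean, Dbp in liver was highest in wild type (11.87 ± 0.13, SD, n = 2), then Hfe-/- (11.57 ± 0.40, n = 3), iron diet (9.94 ± 1.61, n = 3) and control diet (7.12 ± 0.58, n = 2). The first pair of neighbours did not differ beyond their spread, and the third mean carried the spread of the mouse described above. In duodenum the order was Hfe-/- (11.27 ± 0.43, n = 2), wild type (11.20 ± 0.11, n = 2), iron diet (8.57 ± 0.56, n = 3) and control diet (7.60 ± 0.99, n = 2), with overlap within each experiment and none between the experiments. Arntl had the opposite order in the diet experiment, with 6.76 ± 0.54 on the iron diet and 7.22 ± 0.35 on the control diet in liver, and 7.12 ± 0.22 and 7.56 ± 0.18 in duodenum.

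The balance of both arms on each array was described by the mean log2 signal of the 3 night-phase genes (Arntl, Npas2 and Clock) minus that of the other 7. The absolute size of this difference depends on the probes, and only its change between arrays is read. It is built from the member values given above, so its separation of the experiments is not a further result. Not all 7 genes followed it. Between wild-type and control diet livers Per1 and Nr1d1 differed by 0.13 each and Nr1d2 by -0.44. Npas2 was undetected on every liver array and Arntl and Npas2 on all 9 arrays of the Hfe experiment, so there the night-phase mean rests partly on background signal and its changes are not exact. In liver it was -2.38, -2.14 and -2.28 in Hfe-/- mice and -2.18 and -2.24 in wild-type mice. The iron diet livers lay at -0.30, -1.65 and -1.58, against 0.16 and -0.53 in control diet livers. The livers of the Hfe experiment thus formed a narrow range below all livers of the diet experiment, within which iron diet replicate 1 lay between the control values. In duodenum the values were -1.57 and -1.86 in Hfe-/- mice, against -1.73 and -1.59 in wild-type mice. They were 0.09, -0.59 and -0.33 on the iron diet, against -0.06 and 0.29 on the control diet, and there too the experiments did not overlap.

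**Figure D4:**
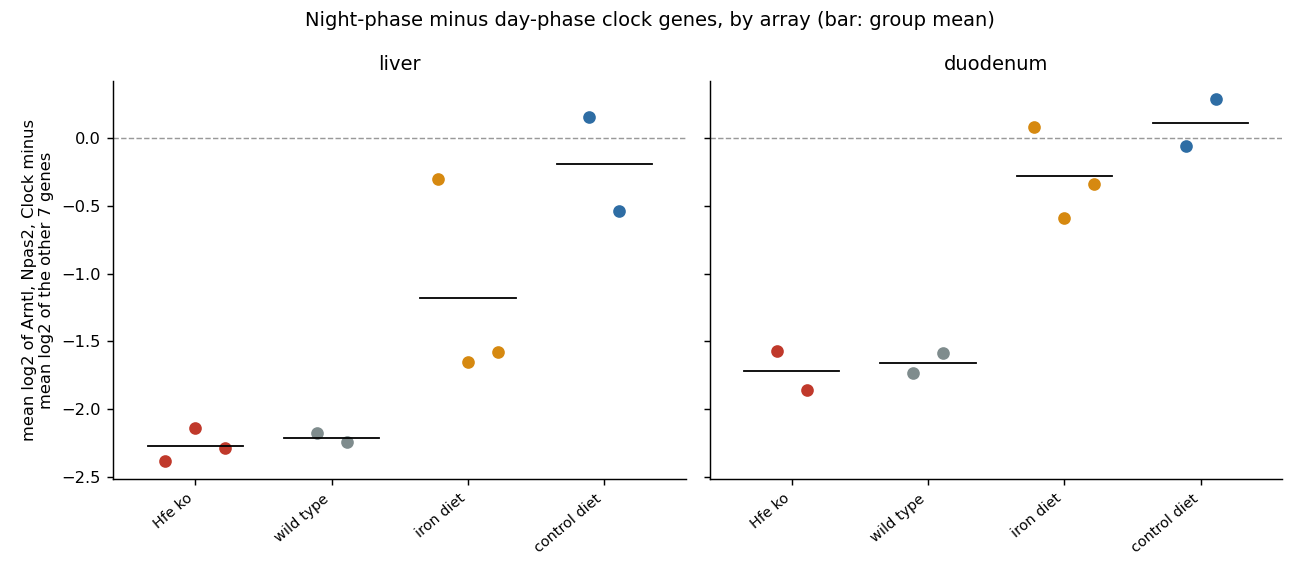
Mean log2 signal of Arntl, Npas2 and Clock minus that of the other 7 clock genes (y axis, log2 units) on each array, by group (Hfe ko is Hfe-/-) in liver and duodenum; each point is 1 mouse and the bar is the group mean. In liver the Hfe experiment ran from -2.38 to -2.14 and the diet experiment from -1.65 to 0.16, and in duodenum the ranges were -1.86 to -1.57 and -0.59 to 0.29.

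The list of 22 other clock loop and output genes, of which 19 are on the array, was read beside the members. Wild-type livers were higher than control diet livers in 3 of 12 genes tested and lower in 0, where 3.38% of all probes passed. The list median was 0.16 (0.14 with genes undetected in a group at their bound) against -0.01 over all probes. Of the 3, Usp2 and Ciart were detected in wild type only, entered the test through those arrays and had to differ. Usp2, a deubiquitinase under clock control, was detected in wild-type livers (8.31 and 8.20) and not in control diet livers (6.30 and 6.40), at least 3.26-fold higher in wild type (adjusted p = 0.00731). Ciart, a repressor of the CLOCK and ARNTL pair, was also undetected in both control diet livers and at least 1.20-fold higher in wild type (adjusted p = 0.0401), and Cry2, which encodes a partner of the PER proteins, was 0.59 ± 0.10 higher (adjusted p = 0.0405). In duodenum 0 of 9 passed in the same comparison, among them Noct with the lowest unadjusted p, at -0.72 ± 0.20. For the iron diet, 1 of 10 passed in liver, where 2.17% of all probes passed. This was Bhlhe40, which encodes the repressor DEC1. It stood at 10.23, 10.42 and 10.56, against 9.11 and 9.25 on the control diet (1.22 ± 0.11, 2.34-fold, adjusted p = 0.00378). Unlike Dbp, Bhlhe40 was high in all 3 iron diet livers, replicate 1 included. For the iron diet in duodenum 0 of 9 passed, and in the Hfe comparisons 0 of 13 passed in liver and 0 of 12 in duodenum.

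Feeding acts on the clock of liver and gut, so genes that rise in fasting and genes that rise after a meal were read on the same arrays. Of the fasting-state genes, 4 of 10 tested were lower in wild-type than in control diet livers and 0 were higher, where 3.38% of all probes passed. The list median was -0.73 (-0.55 with undetected genes at their bound). Of the 4, Fgf21 was detected on the control diet only and had to differ. G6pc, the last enzyme of glucose release, stood at 11.20 and 10.52 in wild-type livers, against 13.77 and 13.63 in control diet livers (-2.85 ± 0.21, 7.19-fold lower, adjusted p = 0.0102). Angptl4, an inhibitor of lipoprotein lipase, stood at 9.17 and 8.73, against 11.33 and 11.05 (-2.24 ± 0.17, adjusted p = 0.0102). Cyp4a14, a fatty acid hydroxylase, was detected in 1 of 2 wild-type livers and was lower (-2.26 ± 0.36, adjusted p = 0.0364), and Fgf21, a fasting hormone, was undetected in both and at least 1.29-fold lower (adjusted p = 0.0438). The fed-state genes had 2 of 9 higher and 0 lower, against the same 3.38% of all probes, with a median of 0.40 (0.31 with undetected genes at their bound). Thrsp, a lipogenic factor, was 2.11 higher (adjusted p = 0.0401) and Elovl6, a fatty acid elongase, was 1.21 higher in wild-type livers (adjusted p = 0.0401).

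Duodenum gave 3 of 6 fasting-state genes lower and 3 of 8 fed-state genes higher in wild type, where 5.01% of all probes passed. The list medians were -0.68 for fasting-state and 0.23 for fed-state genes. Of the fed-state genes, 5 had a positive and 3 a negative fold change, and of the fasting-state genes 2 and 4. G6pc stood at 7.36 and 7.06 in wild-type duodena, against 9.68 and 9.32 in control diet duodena (-2.29 ± 0.17, adjusted p = 0.0138). Angptl4 differed by -1.74 ± 0.16 (adjusted p = 0.0166) and Ppargc1a, a coactivator of fasting metabolism, by -0.82 ± 0.14 (adjusted p = 0.0415). Acacb, Acly and Scd1, enzymes of fatty acid synthesis, were 1.02 (adjusted p = 0.0235), 1.08 (adjusted p = 0.0357) and 0.77 (adjusted p = 0.0386) higher. No array of the Hfe experiment reached the G6pc signal of any diet array in either tissue.

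**Figure D5:**
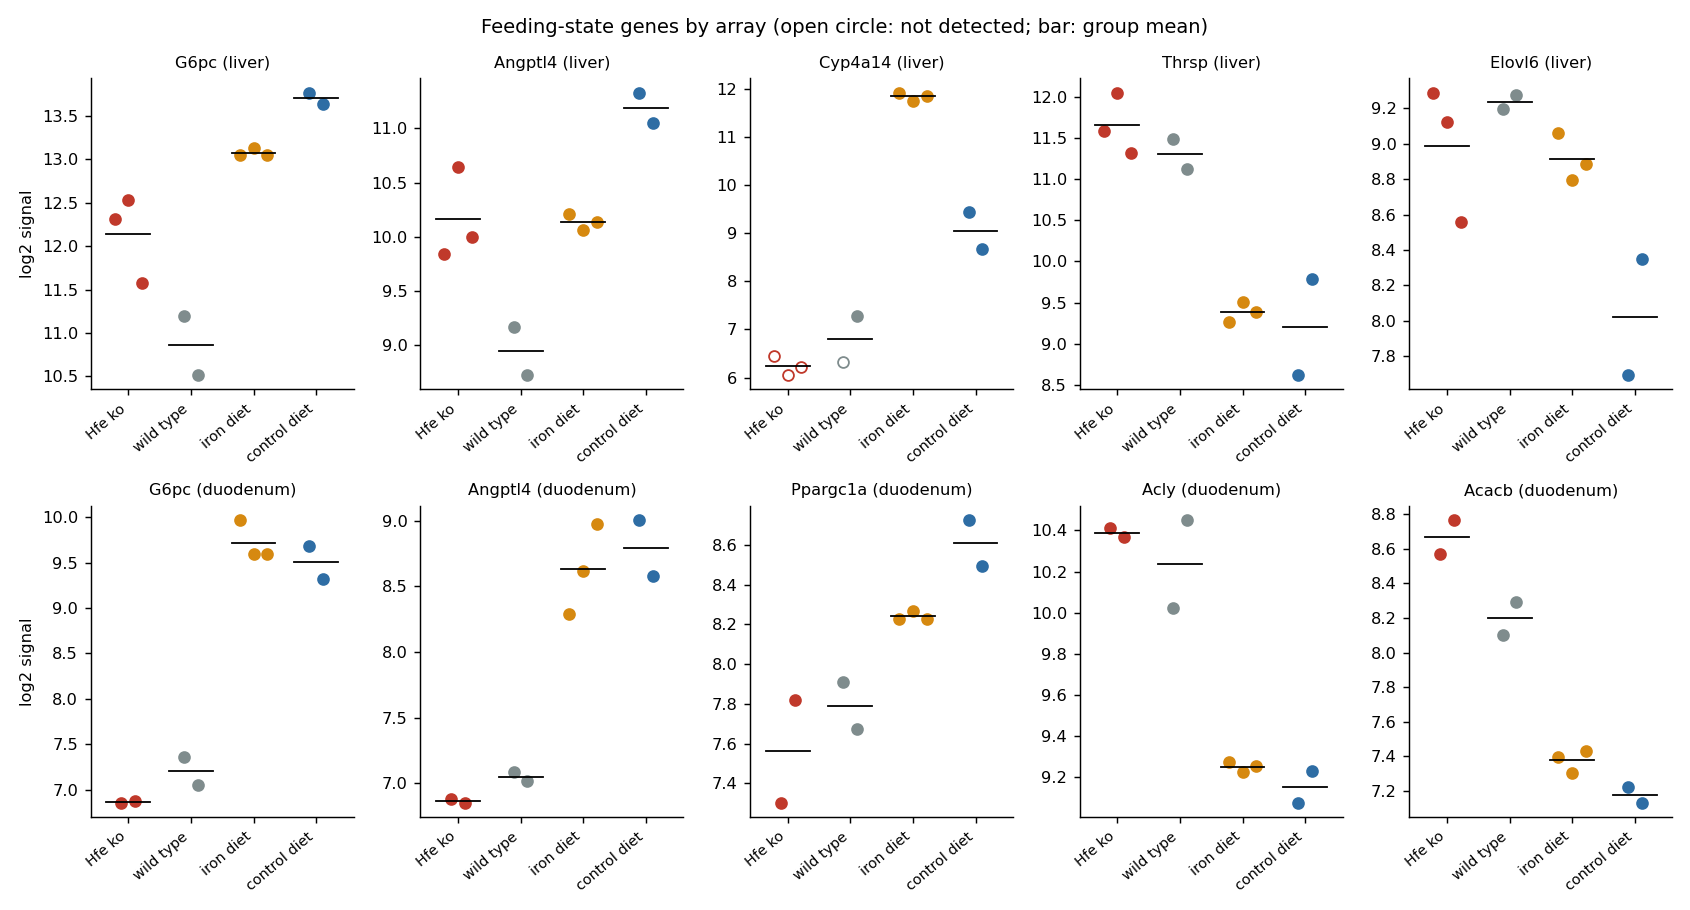
Log2 signal (y axis, a separate scale in each panel) of 5 genes of feeding state in liver (upper row) and 5 in duodenum (lower row), by group (Hfe ko is Hfe-/-); each point is 1 mouse, the bar is the group mean and an open circle is a value that was not detected. G6pc lay between 10.52 and 12.53 in livers of the Hfe experiment and between 13.05 and 13.77 in livers of the diet experiment.

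Iron diet liver replicate 1, which stood apart in the clock genes, did not stand apart in G6pc or Angptl4. On the iron diet, 2 of 10 fasting-state genes were higher and 2 lower in liver, and 2 of 9 fed-state genes were higher and 0 lower. Of all probes, 2.17% passed there. G6pc stood at 13.05, 13.13 and 13.05 in iron diet livers, against 13.77 and 13.63 in control diet livers (-0.62 ± 0.08, adjusted p = 0.0102) and replicate 1 lay with its group. Angptl4 likewise stood at 10.21, 10.06 and 10.14, against 11.33 and 11.05 (-1.05 ± 0.10, adjusted p = 0.00506). The PPAR alpha targets Cyp4a14 and Cyp4a10 were 2.78 ± 0.19 (adjusted p = 0.00132) and 1.33 ± 0.19 higher (adjusted p = 0.0189). All 9 fed-state genes tested had a positive fold change, with a median of 0.50 (0.41 with undetected genes at their bound) against -0.01 over all probes. Of these, Scd1 (0.63, adjusted p = 0.0188) and Pnpla3 (at least 1.32-fold, adjusted p = 0.0334) passed, but Pnpla3 was detected on the iron diet only and had to differ. In duodenum 1 of 6 fasting-state genes, Cyp4a10, was higher on the iron diet (2.14 ± 0.15, adjusted p = 0.0182), and 0 of 8 fed-state genes passed, where 0.44% of all probes passed. In the Hfe comparisons 0 genes of either list passed in either tissue. G6pc and Angptl4 were nonetheless apart without overlap in liver. G6pc stood at 12.31, 12.53 and 11.58 in Hfe-/- livers, against 11.20 and 10.52 in wild type (1.28 ± 0.29, adjusted p = 0.274), and Angptl4 at 9.84, 10.64 and 10.00, against 9.17 and 8.73 (1.21 ± 0.23, adjusted p = 0.21). The diet effect minus the Hfe effect in liver passed for both, at -1.91 ± 0.35 for G6pc (adjusted p = 0.0316) and -2.26 ± 0.30 for Angptl4 (adjusted p = 0.0093).

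Lists for body temperature, glucocorticoids and PAR bZIP targets completed the check. Of the genes tied to body temperature, which follow the daily cycle, Dnajb1 and Hsph1, both heat-induced chaperone genes, passed. Between wild type and control diet 2 of 4 passed in liver and 2 of 5 in duodenum, where 3.38% and 5.01% of all probes passed. For the iron diet 1 of 4 passed in liver and 2 of 5 in duodenum, where 2.17% and 0.44% of all probes passed. Dnajb1 was lower in wild-type than in control diet livers (-0.79 ± 0.10, adjusted p = 0.0222) and duodena (-1.96 ± 0.11, adjusted p = 0.00595), while Hsph1 was higher in liver (0.79 ± 0.13, adjusted p = 0.0401) and lower in duodenum (-1.38 ± 0.16, adjusted p = 0.0238). On the iron diet Hsph1 was lower in liver (-1.07 ± 0.11, adjusted p = 0.00508) and both were lower in duodenum (Hsph1 -2.41 ± 0.32, adjusted p = 0.0407, and Dnajb1 -1.34 ± 0.19, adjusted p = 0.0439). Of the glucocorticoid-responsive genes, 1 of 8 passed between wild-type and control diet livers and 2 of 7 between those duodena. For the iron diet 2 of 8 passed in liver and 0 of 7 in duodenum. The shares of all probes were those given above. Tsc22d3 was lower in wild-type livers (-1.05, adjusted p = 0.0102) and in iron diet livers (-0.46, adjusted p = 0.0208) than on the control diet. Dusp1 was higher in iron diet livers (1.11, adjusted p = 0.0457), and Cdkn1a (-0.93, adjusted p = 0.0284) and Ddit4 (-0.54, adjusted p = 0.0475) were lower in wild-type duodena. Of the known targets of DBP, TEF and HLF, 0 of 4 passed between wild-type and control diet livers, where Cyp2a4 and Alas1 had the lowest unadjusted p, with differences of 0.45 ± 0.12 (adjusted p = 0.104) and 0.91 ± 0.28 (adjusted p = 0.14). On the iron diet 2 of 5 passed in liver, where 2.17% of all probes passed. Cyp2b10, a drug-metabolising enzyme, was at least 10.5-fold higher (adjusted p = 0.000587). Cyp7a1, the rate-limiting enzyme of bile acid synthesis, was lower (-1.47 ± 0.18, adjusted p = 0.0102). Cyp2b10 was detected on the iron diet only and had to differ. For Cyp7a1 the diet effect minus the Hfe effect in liver also passed (-1.51 ± 0.30, adjusted p = 0.0422). In the Hfe comparisons 0 genes of these lists passed, where 0.0282% of all probes passed in liver and 0.00602% in duodenum. All 7 glucocorticoid-responsive genes tested in liver had a positive fold change there, with a median of 0.50 against -0.01 over all probes. In duodenum 3 were positive and 4 negative (median -0.01).

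The genes whose pattern was most like that of Dbp and Arntl were found by Pearson's r across the arrays of a tissue, over the genes detected on every array of the tissue (for Arntl 6481 genes in 10 livers and 7146 in 9 duodena, for Dbp 6480 and 7145). Arntl itself was detected on only 3 livers and 5 duodena, so its r values rest partly on background signal and it was not among the genes ranked against Dbp. The arrays fall into 2 experiments, which all these values share, so r is a description without a test. In liver, Tef was most like Dbp (r = 0.97), followed by Gpr146, Tyrobp, Rnf145 and Pitpnc1 (0.94 to 0.96), and Dnmt3b (-0.98), Slc30a10, Asap2, Rcor1 and Clpx (-0.97 to -0.95) were least like it. Most like Arntl in liver were Clic4, Clpx, Asap2, Dnmt3b and Prkcd (0.93 to 0.95), and least like it were Tef and Dbp (both -0.96), then Gpr146, Gnat1 and Rpain. In duodenum Tef was again most like Dbp (r = 0.996), followed by Mprip, Tor1b, Per3 and 2010204K13Rik (0.96), while Foxo1, Lrrc1, Mrm1, Plekha2 and Nt5m lay at the negative end (-0.98 to -0.97). Foxo1, a fasting-activated transcription factor, was most like Arntl there (0.98), followed by Prkcd, Parp9, Tmc5 and Fbxo34, and Tef and Dbp were again at the negative end (both -0.98), followed by Col18a1, Per3 and Ddrgk1.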

How the data were processed

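The deposited signal file holds linear mean bead intensity per probe, not yet normalized by the authors, and a detection p-value per array. The authors also deposited log2 values, quantile-normalized in Chipster; in duodenum these do not follow their probe identifiers, so they served only as an alternative for liver. For 2 Hfe-/- livers the replicate numbers of both files are crossed; group means do not depend on this. Of 46643 entries, 11 duplicated identifiers were averaged. Gene names came from the platform annotation, where 29976 probes have 1 symbol, 10 several and 16646 none.

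Each tissue's arrays were quantile-normalized together on the log2 scale. A probe entered a comparison when 2 or more of its arrays had a detection p under 0.05, and was fitted with limma 3.58.1 (lmFit, eBayes) in R 4.3.3 on the arrays of that comparison, with Benjamini-Hochberg adjustment over all probes tested and a threshold of 0.05. Differences of effects were fitted on all arrays of the tissue, or on all 19 for differences between tissues. A gene undetected in a whole group was set to each array's lowest signal among detected probes, and its fold change is a lower bound. The number of arrays limits the precision. Shares among probes detected in both groups were added after seeing the data. The fits were tested on simulated data.

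All members were read in every comparison where they could be tested, and members not named for a comparison did not pass in it. List genes past the threshold were named up to 6 per list and comparison, and beyond these at most 2 per list with the lowest p. Members and lists were chosen with earlier results of these data known, and the study's own table includes several of them. Alternatives tried were other normalizations, background correction, detection filters, a fit over all arrays of the tissue, a replicate block and each mouse left out.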

Additional observations from a re-analysis of the deposited data

Results flagged for a closer look

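For 2 genes read beside the clock genes, the effect of the iron diet differed between liver and duodenum by a test of the difference itself. Both kept their sign under every alternative, but Scd1 passed in only 8 of 16 alternatives and Cyp2b10 in 11 of 15. Scd1 had a difference of 1.16 ± 0.24 (SE, limma adjusted p = 0.0287), being higher on the iron diet in liver (0.63) with a fold change of -0.53 in duodenum (adjusted p = 0.214). Cyp2b10 had a difference of 2.81 ± 0.53 (adjusted p = 0.018), with 3.64 in liver, where it was undetected on the control diet, so that it entered that test through the iron diet arrays alone, and 0.83 in duodenum (adjusted p = 0.279).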

How the results depend on the processing

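The count of clock genes past the threshold was 0 under every alternative run for both Hfe comparisons, for the iron diet in duodenum, for the diet effect minus the Hfe effect in duodenum and for the Hfe effect between tissues. For the iron diet in liver, where it was 1, it was 0 with median scaling and with detection on every array, 2 without a detection filter, 3 with the replicate block, and between 0 and 5 when a mouse was left out. Leaving out iron diet liver replicate 1 also gave 1 member, against 0, for the diet effect minus the Hfe effect in liver and for the diet effect between tissues, where all other exclusions gave 0. Between wild-type and control diet livers the count was 3 to 6 over the alternatives, with 3 to 4 when a mouse was left out. In duodenum it was 0 with median scaling and 1 to 4 when a mouse was left out.

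Members that did not pass changed sign near 0. For the iron diet in liver, Per2 (0.01) turned to -0.0195 with median scaling and -0.106 with the replicate block. With a mouse left out, Per2 ran from -0.111 to 0.222 and Per1 from -0.205 to 0.0696 there, and Npas2 from -0.310 to 0.0542 for the iron diet in duodenum. Between wild type and control diet, Nr1d1 ran from -0.216 to 0.468 in liver and Per1 from -0.117 to 0.0217 in duodenum. Other probes differed in sign for Tef (-0.0428 for the iron diet in liver, -0.0874 and -0.118 between wild type and control diet in liver and duodenum), Clock (0.0063 for the iron diet in duodenum) and Nr1d1 (-0.197 between wild type and control diet in duodenum). The cause was not tested.

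Replicate numbers do not pair mice in the labels. Deviations of same-numbered mice correlated between -0.46 and 0.15, and the replicate block gave 0 members past the threshold in both Hfe comparisons and the iron diet duodenum, 6 in wild-type against control diet livers and 4 in duodenum. In the Hfe duodenum, where the correlation was -0.46, a crossed pairing chosen after seeing the data also gave 0 members. Over all probes the count past the threshold moved between 28 and 484 for the iron diet in liver (324), 0 and 126 in duodenum (72), 12 and 1016 between wild-type and control diet livers (482), 1 and 1806 in duodenum (808), 0 and 25 for Hfe in liver (4), 0 and 57 in duodenum (1), 4 and 193 for the diet effect minus the Hfe effect in liver (137), 0 and 28 in duodenum (0), 7 and 164 for the diet effect between tissues (110), and 0 and 114 for the Hfe effect between tissues (2). The 42 list results past the threshold kept their sign under every alternative, and 39 lost the threshold under at least 1. The authors' normalized values could not be used between experiments, which they normalized separately, and no slide identifier was found to fit as a block. With 2 or 3 mice a group, dim genes such as Arntl, Npas2 and Per1 have only bounds or small differences, and signal over background limits them.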
